A study of Mus musculus with 41 samples.

Results

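The enzymes of xenobiotic and steroid metabolism were followed across sorted stromal cells of the mouse thymus. The members were all genes of the arrays whose symbol belongs to the cytochrome P450 (Cyp), glutathione transferase (Gst and Mgst), sulfotransferase (Sult), glucuronosyltransferase (Ugt), aldehyde dehydrogenase (Aldh), alcohol dehydrogenase (Adh), aldehyde oxidase (Aox), aldo-keto reductase 1 (Akr1), epoxide hydrolase (Ephx) or monoamine oxidase families, with Cyp51 left out. They numbered 119 of 13283 genes, measured by 175 probes, and each gene was read from its probe of highest mean.

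These families work in sequence. P450s, oxidases, dehydrogenases and reductases introduce or unmask a reactive group on drugs, steroids, retinoids and lipid aldehydes, and transferases then attach glutathione, sulfate or glucuronic acid so that the product can leave the cell. The same families make and remove signalling molecules. Adh and Aldh1a enzymes turn retinol into retinoic acid and Cyp26 enzymes degrade it, Cyp11a1 and Cyp17a1 start steroid synthesis, and Cyp27a1 and Cyp7b1 hydroxylate sterols. The thymus shrinks with age, and removal of the testes, the main source of androgen, is known to bring transient regrowth in older male mice.

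The study asked which genes change in thymic stroma with age and after castration, in male C57BL/6 mice. Thymic epithelial cells (TEC, sorted as CD45-EpCAM+) and non-epithelial stromal cells (nonTEC, CD45-EpCAM-) came from middle-aged mice of 9 to 12 months at day 4, 7 or 20 after castration or sham surgery, from unoperated middle-aged mice, and from unoperated young mice of 5 to 6 weeks. RNA was measured on 41 Illumina arrays in 14 groups of 3 arrays, except for the nonTEC sham group of day 7, which had 2, and nonTEC had no day 20. The labels do not say whether each array stands for its own animal or for a pool, so p-values measure only the spread between arrays.

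Of the 119 members, 113 were present on TEC arrays and 90 on nonTEC arrays, with 82 on both. All values are deposited log2 intensities, and the fractions appear to have been normalized separately. A gene was tested where some group mean exceeded 6.73, which is the median of all values. This kept 67 members in TEC and 63 in nonTEC. In TEC 42 members were above this level in every group and 3 in 1 group only (Cyp2b19, Cyp4b1-ps2 and Cyp4f14). In nonTEC 52 were above it in every group and 4 in 1 group only (Akr1c12, Cyp2a5, Cyp2s1 and Cyp4f18). A member counts as called at an adjusted p under 0.05, from limma with Benjamini-Hochberg adjustment over all genes tested, and "rose" and "fell" are used of called members only.

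The sort labels were checked against marker genes. The mean of the 12 epithelial markers lay between 9.39 and 10.61 on the TEC arrays, and that of the 10 present on nonTEC arrays between 5.82 and 7.73. The fibroblast mean lay between 6.12 and 8.41 on TEC arrays, from 8 of 10 markers, and between 11.71 and 12.63 on nonTEC arrays, from 9 of 10. Thymocyte markers were read on both fractions in spite of the CD45 gate, with means of 6.14 to 9.77 in TEC and 7.23 to 9.56 in nonTEC. Of the TEC arrays, 5 stood apart, middle-aged replicates 2 and 3, castrated day 4 replicates 2 and 3 and sham day 4 replicate 3, and the last of these had the highest thymocyte (9.77), endothelial (8.64) and fibroblast (8.41) means. Middle-aged TEC replicates 2 and 3 lay furthest out on either side of the second principal component, at 56.7 and -45.8, and correlated at 0.798, the lowest of any pair in a group. TEC results were also fitted without all 5 of these arrays and without 4 of them, keeping middle-aged replicate 2, choices made after seeing the data. All 6 TEC arrays of day 20 lay together away from the other 18 on the first principal component, so day 20 and whatever else set those arrays apart cannot be told apart.

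Which fraction carried which enzyme was asked first, on the 6 unoperated arrays of each. Of 70 members tested on both fractions, 22 were higher in TEC and 40 were lower in TEC than in nonTEC. That is 88.6% called, where 76.7% of all 8487 genes were called (29.3% higher and 47.4% lower). The median difference, TEC minus nonTEC, was -0.53 for the members and -0.26 for all genes. Since each fraction appears to have been normalized on its own, the size of each difference rests on that normalization.

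The P450s of families 1 to 3 held the extremes on both sides. Cyp2a5, the coumarin hydroxylase of mice, averaged 11.40 ± 0.94 in TEC and 6.65 ± 1.83 in nonTEC (SD, n = 6 each), a difference of 4.76 ± 0.29 (SE) with an adjusted p of 5.74e-16 in limma. Cyp2f2, known from the club cells of mouse airways, averaged 10.91 ± 0.34 in TEC and 6.86 ± 0.48 in nonTEC, a difference of 4.05 ± 0.19. Cyp1b1, an oestradiol- and hydrocarbon-hydroxylating P450, stood at the other end with 5.96 ± 0.84 in TEC and 10.79 ± 0.22 in nonTEC, a difference of -4.83 ± 0.28. For these 3 genes no TEC array overlapped a nonTEC array.

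Averaged over young and middle-aged arrays, the 4 retinoid enzymes tested were lower in TEC. Adh7 did not keep that order at both ages, with 6.72 ± 1.26 in TEC and 9.38 ± 0.59 in nonTEC of middle-aged mice, but 7.70 ± 0.10 in TEC and 6.78 ± 0.19 in nonTEC of young mice (SD, n = 3 each). No test was made within an age. Aldh1a1, a retinal dehydrogenase, averaged 4.75 ± 0.49 in TEC and 8.82 ± 0.26 in nonTEC, and Adh1, a retinol-oxidizing alcohol dehydrogenase, 9.02 ± 0.25 in TEC and 11.12 ± 0.58 in nonTEC. The differences were -4.07 ± 0.16 and -2.09 ± 0.19 (SE). The 2 amine and aldehyde oxidases tested were lower in TEC too, with differences of -3.45 ± 0.20 for Maob and -2.21 ± 0.18 for Aox3. Maob is the mitochondrial monoamine oxidase that deaminates phenylethylamine and other amines.

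The glutathione transferases split, 7 higher and 11 lower in TEC of 21 tested. Gsta4, which conjugates the lipid aldehyde 4-hydroxynonenal, averaged 9.69 ± 0.43 in TEC and 6.52 ± 0.26 in nonTEC, and the microsomal Mgst3 11.44 ± 0.62 in TEC and 8.50 ± 0.41 in nonTEC. Gstp3 was higher in TEC by 3.22 ± 0.21, while the related Gstp2 and Gstp1 were lower, with differences of -2.76 ± 0.30 and -0.92 ± 0.35. Their probes may read each other's transcripts, so these values are uncertain. Of the sterol P450s, Cyp27a1 and Cyp7b1 were lower in TEC, with differences of -1.50 ± 0.19 and -0.39 ± 0.11.

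**Figure D1:**
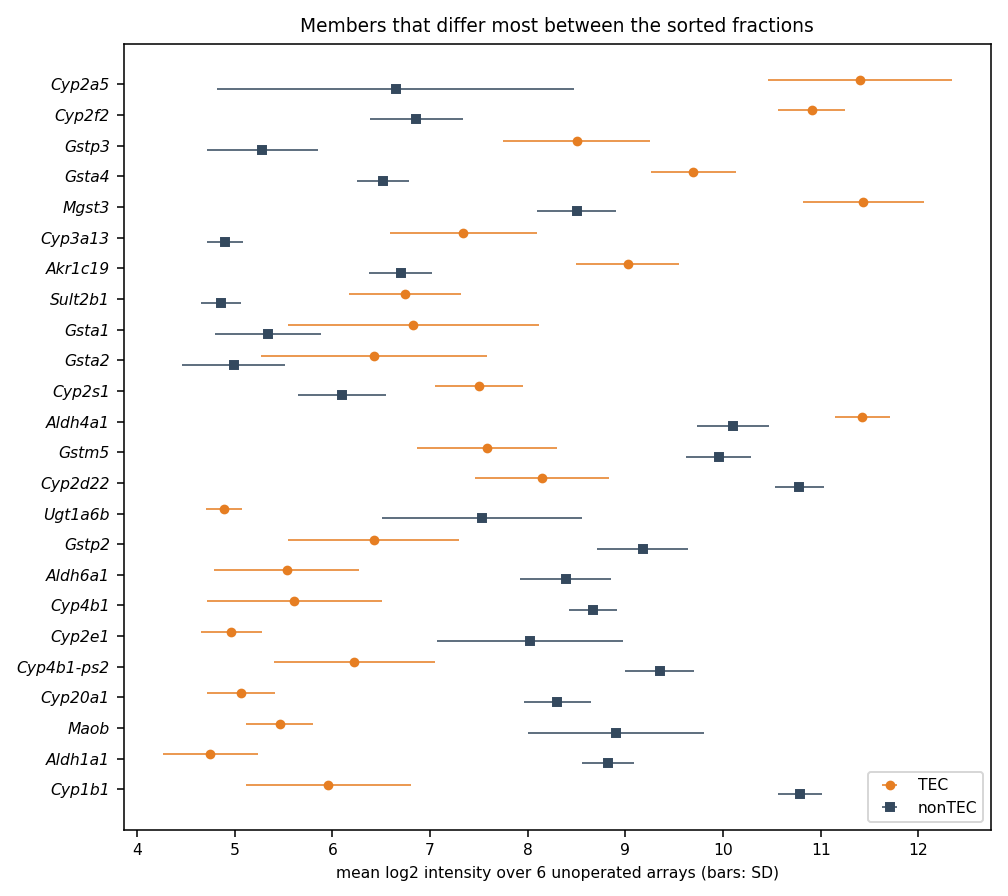
Mean log2 intensity (points) with SD (bars) over the 6 unoperated TEC arrays (orange) and the 6 unoperated nonTEC arrays (dark squares), for the 12 members of largest positive and the 12 of largest negative difference among those called. Cyp2a5 and Cyp2f2 head the list with differences of 4.76 and 4.05, and Cyp1b1 closes it with -4.83.

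Ageing changed many of these enzymes in nonTEC. Of 63 members tested, 21 were higher and 8 lower in middle-aged than in young nonTEC, which is 46% called against 32.4% of all 7771 genes tested (16.8% higher and 15.5% lower). The members' median difference was 0.22 and that of all genes 0.02. Leaving out 1 array at a time gave between 23 and 30 calls. In these bulk RNA samples, more cells of a type and more RNA per cell cannot be told apart.

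Of the 4 retinoid enzymes tested 3 rose, and so did both oxidases. Adh7, the alcohol dehydrogenase of stomach that oxidizes retinol, read 9.44, 9.93 and 8.76 in middle-aged nonTEC, against 6.96, 6.81 and 6.58 in young nonTEC. All 3 middle-aged arrays were above all 3 young ones, and the difference of 2.60 ± 0.21 (SE) is a 6.05-fold rise (adjusted p = 5.53e-07). Aox3, a molybdenum-containing aldehyde oxidase, read 11.19, 10.71 and 9.69 in middle-aged nonTEC, against 8.35, 8.12 and 8.03 in young nonTEC, a difference of 2.37 ± 0.25 (adjusted p = 5.22e-06). Middle-aged replicate 3 was the lowest of its group for both genes and still above every young array. Maob rose by 1.54 ± 0.19 (adjusted p = 3.47e-05), Aldh1a3, another retinal dehydrogenase, by 0.99 ± 0.21 and Adh1 by 0.88 ± 0.18. Aldh1a1, the fourth retinoid enzyme tested, read 9.06, 9.23 and 8.60 in middle-aged nonTEC and 8.66, 8.77 and 8.62 in young nonTEC, groups that overlap, and was not called.

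Cyp27a1, the mitochondrial sterol 27-hydroxylase that makes an oxysterol ligand of the liver X receptors, read 11.21, 11.49 and 10.93 in middle-aged nonTEC, against 9.71, 9.79 and 9.57 in young nonTEC. The gap between the groups was wide beside their spread, and the difference was 1.52 ± 0.15 (adjusted p = 3.67e-06). Cyp2e1, the ethanol-oxidizing P450, read 8.50, 9.31 and 8.72 in middle-aged nonTEC, against 7.46, 7.21 and 6.94 in young nonTEC. It rose by 1.64 ± 0.19 (adjusted p = 1.50e-05). Cyp7b1, the oxysterol 7-alpha-hydroxylase, differed by 0.04 and was not called.

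Some conjugating enzymes also rose. Sult5a1, a sulfotransferase, rose by 1.16 ± 0.24 (adjusted p = 0.00155), and Ugt1a6b and Ugt1a6a, phenol glucuronosyltransferases, by 1.33 ± 0.36 and 1.26 ± 0.34 (adjusted p = 0.0104 and 0.00943). The Ugt1a genes share exons, so their probes may read each other's transcripts, and both calls were lost without young replicate 1, where the differences were 0.84 and 0.85 with adjusted p of 0.0634 and 0.0589. Ugt1a6b was also lost without middle-aged replicate 1 (1.14, adjusted p = 0.0515). Of 18 glutathione transferases tested, 5 rose and 2 fell. Gsta3 rose by 0.79 ± 0.17 and Gstm1 by 0.76 ± 0.15. A second, dim probe of Gstm1 differed by -0.17.

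Fewer members fell with age in nonTEC. Cyp2a5 read 4.66, 5.08 and 5.39 in middle-aged nonTEC, against 8.0, 7.69 and 9.06 in young nonTEC, a difference of -3.20 ± 0.45 (adjusted p = 7.73e-05). Mgst2, a microsomal glutathione transferase and leukotriene C4 synthase, fell by 1.72 ± 0.33 and Cyp4f18, the leukotriene B4 hydroxylase of mouse neutrophils, by 1.29 ± 0.42, a call lost without middle-aged replicate 1 or 3 or young replicate 1 or 3. For Cyp2a5 and Cyp4f18 young nonTEC was the only group above the filter, so both entered the test only through the group where they are high, and their falls are not independent of the filter. Aldh18a1, which makes the precursor of proline, fell by 0.80 ± 0.12 (adjusted p = 0.000166).

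Marker means also differed between the ages in nonTEC. Of 11 marker lists, 4 did not overlap between the ages, all lower in middle-aged nonTEC. B lineage markers (5 of 8 present) read 5.12 to 5.64 in middle-aged nonTEC and 7.54 to 8.64 in young nonTEC, and epithelial markers 5.82 to 6.65 in middle-aged and 6.90 to 7.73 in young nonTEC. Thymocyte markers (10 of 13) read 7.25 to 8.08 in middle-aged and 8.58 to 9.49 in young nonTEC, and fibroblast markers 11.71 to 12.19 in middle-aged and 12.35 to 12.63 in young nonTEC. Myeloid markers (6 of 10) overlapped, at 6.26 to 8.87 in middle-aged and 8.36 to 10.37 in young nonTEC. Apart from the epithelial list, their part in these differences was not tested.

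With the epithelial mean as a covariate, chosen after seeing the data, 8 of the 29 calls in nonTEC ageing were left. They included Adh7 at 2.39 ± 0.31, Aox3 at 1.88 ± 0.33, Cyp27a1 at 1.45 ± 0.23, Maob at 1.25 ± 0.28 and Cyp2a5 at -2.34 ± 0.60, with adjusted p of 0.000525 to 0.0345. Cyp2a5 passed the filter only through young nonTEC, so its call is not independent of the filter in this fit either. Some lost calls hardly moved in size while their errors grew. Adh1 stood at 0.88 ± 0.26 with the covariate and 0.88 ± 0.18 without it, and Aldh5a1, the succinate semialdehyde dehydrogenase, at 0.83 ± 0.25 with it and 0.85 ± 0.16 without it (adjusted p = 0.0638 and 0.0661 with it). Others became smaller, such as Ugt1a6b at 0.78 ± 0.51 with it and 1.33 ± 0.36 without it. The share of all genes called with the covariate is not given, so the smaller count is not a result about the members alone.

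Castration lowered a set of the same families in nonTEC. Averaged over days 4 and 7, 14 of 63 members fell and 0 rose, against 6.54% of all genes called, 3.81% lower and 2.73% higher. That is 22.2% of the members. The members' median difference, castrated minus sham, was -0.13, and that of all genes -0.01. Within days, 8 members were called lower at day 4, where 6.31% of all genes were called (2.65% higher and 3.65% lower), and 5 at day 7, where 0.438% were (0.0515% higher and 0.386% lower), and Adh1, Sult1a1, Maob, Cyp27a1 and Sult5a1 were called on both days. At an unadjusted p under 0.05 the numbers were 14 at day 4 and 21 at day 7. For such counts, here and below, the share over all genes was not counted, so they are no result about the members. The difference between the 2 days was not tested.

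Cyp27a1 read 10.18, 10.42 and 10.06 in castrated nonTEC at day 4, against 11.24, 11.13 and 11.43 in sham nonTEC. At day 7 it read 9.95, 9.82 and 10.10 in castrated nonTEC, against 11.23 and 11.48 in sham nonTEC. Every castrated array was below every sham array of either day, and the mean difference over both days was -1.22 ± 0.11 (adjusted p = 7.26e-06), a 2.33-fold fall. The castrated arrays lay above the young unoperated range of 9.57 to 9.79, and the sham arrays within the unoperated middle-aged range of 10.93 to 11.49.

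Maob read 8.61, 9.07 and 9.19 at day 4 and 8.87, 8.87 and 8.98 at day 7 in castrated nonTEC, against 10.12, 10.03 and 10.20 at day 4 and 9.91 and 10.08 at day 7 in sham nonTEC. The groups did not overlap, and the difference over both days was -1.12 ± 0.15 (adjusted p = 0.000369). The sulfotransferases tested, Sult5a1 and Sult1a1, fell by 1.23 ± 0.18 and 0.91 ± 0.12. Sult1a1, which sulfates phenols, had read 9.65, 10.38 and 10.17 in middle-aged nonTEC and 9.90, 10.02 and 9.96 in young nonTEC, so that its fall had no counterpart among the ageing calls.

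Of the retinoid enzymes 3 of 4 fell. Adh1 read 11.15, 11.23 and 11.43 in castrated nonTEC at day 4, against 12.07, 11.94 and 12.10 in sham nonTEC. At day 7 it read 10.92, 11.21 and 10.95 in castrated nonTEC, against 11.94 and 11.98 in sham nonTEC. No arrays overlapped, and the difference over both days was -0.85 ± 0.13 (adjusted p = 0.00107). Aldh1a1 fell by 0.89 ± 0.14 (adjusted p = 0.00107) and Adh7 by 0.58 ± 0.16 (adjusted p = 0.0394). Among glutathione transferases, Gsta3 fell by 0.88 ± 0.13, Gsta4 by 0.54 ± 0.16 and Gstm1 by 0.48 ± 0.11. Aox3 fell by 0.78 ± 0.19, and the P450s Cyp2f2, Cyp2s1 and Cyp2e1 by 0.86 ± 0.20, 0.70 ± 0.20 and 0.56 ± 0.14. Gsta4 was above the filter only in the sham groups of both days and Cyp2s1 only in the sham group of day 7, so these 2 of the 14 calls entered the test only through groups where they are high and are not independent of the filter. Ephx1, the microsomal epoxide hydrolase, was called at day 4 only, at -0.39 ± 0.11.

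**Figure D2:**
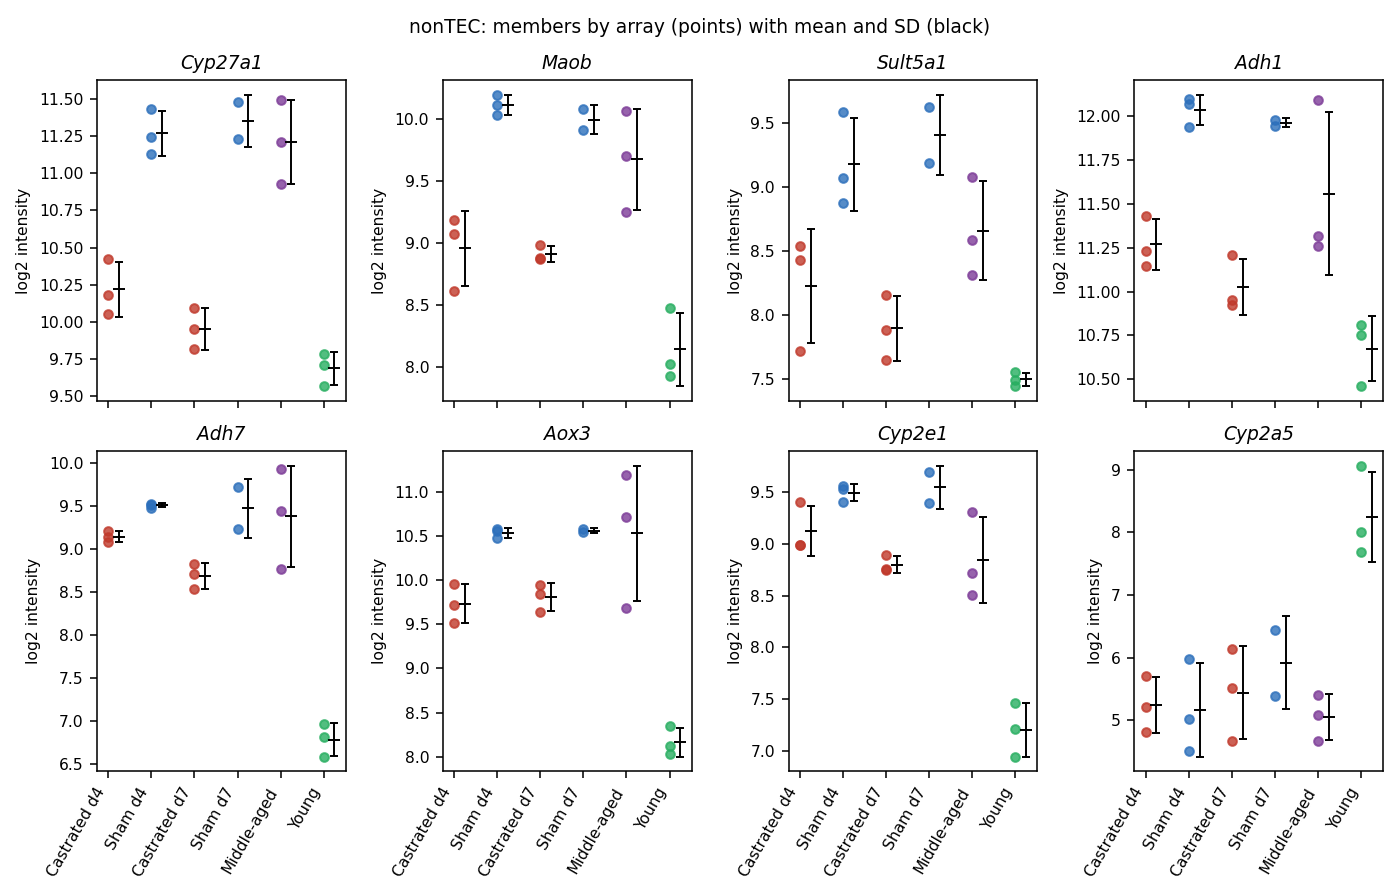
Log2 intensity of 8 members on each nonTEC array (points), with group mean and SD (black), for castrated (red), sham (blue), unoperated middle-aged (purple) and unoperated young (green) nonTEC. Cyp27a1, Maob, Sult5a1 and Adh1 are lower on every castrated array than on every sham array of either day, and Cyp2a5 is high only on the 3 young arrays, at 7.69 to 9.06.

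Leaving out 1 nonTEC array at a time gave 7 to 14 calls for the mean over days. Sult5a1, Cyp27a1, Maob, Sult1a1, Gsta3, Aldh1a1 and Adh1 were called each time. Adh7 was lost each time (adjusted p 0.0539 to 0.246), Cyp2s1 without 10, Gsta4 without 9 and Cyp2e1 without 8 of the 11 arrays, and at day 7 Adh1 and Maob were lost without any 1 of the 5 arrays. Sham day 7 replicate 2 weighed most: without it 0 members were called at day 7, where Cyp27a1 stood at -1.27 with an adjusted p of 0.0526, and over both days Aox3, Cyp2f2 and Gstm1 lost their calls. Aox3 and Cyp2f2 also lost theirs without sham day 7 replicate 1. Epithelial markers also moved, with means of 6.56 to 7.04 at day 4 and 6.65 to 6.78 at day 7 in castrated nonTEC and of 5.82 to 6.03 and 5.95 to 6.38 in sham nonTEC. Thymocyte means were 8.0 to 9.56 and 8.30 to 8.60 in castrated nonTEC at days 4 and 7, and 7.23 to 7.56 and 7.84 to 7.90 in sham nonTEC. With the epithelial mean as a covariate only Cyp27a1 (-1.16 ± 0.18) and Sult1a1 (-1.11 ± 0.17) kept their calls, while Maob stood at -0.89 ± 0.22 and Adh1 at -0.85 ± 0.21, with adjusted p of 0.246 for both, and Aox3 at -0.38 ± 0.26. The difference of Adh1 was the same with and without the covariate, with a larger error. Here too the share of all genes called with the covariate is not given, so the lost calls are not a result about the members alone.

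The 250 bases before the annotated start of 2 genes that were lower on every castrated nonTEC array are printed here to show what lies next to them. They are RefSeq promoter windows of GRCm38.p6, for Cyp27a1 at chr1:74713285-74713534 and for Adh1 at chr3:138277335-138277584, both on the plus strand. Both strands were searched for the androgen and glucocorticoid receptor half-site AGAACA, the antioxidant response core TGACNNNGC, the dioxin response core GCGTG and the TATA box TATAAA, and capitals mark a match.
Cyp27a1: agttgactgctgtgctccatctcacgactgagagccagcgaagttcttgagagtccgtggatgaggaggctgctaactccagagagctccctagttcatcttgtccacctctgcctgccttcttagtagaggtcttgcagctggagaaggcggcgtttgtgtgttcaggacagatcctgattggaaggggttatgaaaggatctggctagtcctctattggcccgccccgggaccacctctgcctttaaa
Adh1: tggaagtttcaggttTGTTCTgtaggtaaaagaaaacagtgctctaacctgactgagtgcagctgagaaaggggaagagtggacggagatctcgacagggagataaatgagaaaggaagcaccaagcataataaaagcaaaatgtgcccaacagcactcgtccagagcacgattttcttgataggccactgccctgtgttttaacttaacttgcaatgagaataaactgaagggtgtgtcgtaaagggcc
Adh1 held AGAACA on the minus strand, beginning 235 bases before the start, and Cyp27a1 held none of these letters. AGAACA occurred in 16.1% of 32851 RefSeq windows and in 12.9% of the 116 windows of 96 members, so a match is common.

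In TEC, Gsta3, Gstm1, Gstm2, Ephx1 and Aldh2 rose with age and Sult1c2 fell. Of 67 members tested, 14 were higher and 8 lower in middle-aged than in young TEC, which is 32.8% called against 18.8% of all 8195 genes (11.9% higher and 6.88% lower). The members' median difference was -0.17 and that of all genes 0.01. The glutathione transferases split, with 5 of the rises and 3 of the falls from 20 tested.

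Gsta3 read 11.61, 10.20 and 10.52 in middle-aged TEC, against 8.91, 8.86 and 9.16 in young TEC. The first middle-aged array stood highest and all 3 were above the young ones, a difference of 1.80 ± 0.29 (adjusted p = 0.000449). Gstm1 rose by 1.49 ± 0.34 and Gstm2 by 1.20 ± 0.20 (adjusted p = 0.00596 and 0.000709). The Gstm genes are close copies of each other. Ephx1 read 11.88, 12.17 and 11.67 in middle-aged TEC, against 10.52, 10.66 and 10.85 in young TEC. It rose by 1.22 ± 0.13 (adjusted p = 1.99e-05), with the groups far apart.

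Aldh2, the mitochondrial enzyme that clears acetaldehyde, read 13.33, 13.08 and 12.75 in middle-aged TEC, against 12.15, 12.29 and 12.56 in young TEC, and rose by 0.72 ± 0.13 (adjusted p = 0.001). Cyp2d22 rose by 1.10 ± 0.22 and Cyp4b1-ps2, listed as a pseudogene, by 1.33 ± 0.34. Middle-aged TEC was the only group of Cyp4b1-ps2 above the filter, so it entered the test only through the group where it is high, and its rise is not independent of the filter. The rise of Gstk1 (0.85 ± 0.22) is uncertain, since its second probe differed by -0.39.

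Among the falls, Sult1c2, a sulfotransferase, read 8.34, 8.29 and 8.77 in middle-aged TEC, against 9.34, 9.38 and 9.40 in young TEC, and fell by 0.91 ± 0.18 (adjusted p = 0.0027). Mgst3 fell by 0.84 ± 0.21, Gstp3 by 0.91 ± 0.29 and Cyp2g1, known from olfactory mucosa, by 1.03 ± 0.33. Cyp2a5 read 10.86, 9.72 and 12.02 in middle-aged TEC, against 11.97, 11.76 and 12.08 in young TEC. Its groups overlap, since middle-aged replicate 3 was as high as the young arrays, and the fall of 1.07 ± 0.34 had an adjusted p of 0.0326. The calls of Cyp2a5 and Gstp3 were lost without each array but middle-aged replicate 3, that of Cyp2g1 without middle-aged replicate 2 or any 1 young array, and that of Mgst3 without middle-aged replicate 2.

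The TEC ageing count depended on single arrays. It was 11 without middle-aged replicate 2, 12, 13 and 14 without young replicate 1, 2 or 3, and 30 without middle-aged replicate 3. Fitted on the 6 arrays compared alone, 0 members were called and 8 of all genes. Without the 4 arrays, 36 members were called, 13 higher and 23 lower, where 36.1% of all genes were (17.6% higher and 18.5% lower), and Cyp2a5 fell by 1.65 (adjusted p = 8.53e-05). Without all 5, which leaves 1 middle-aged array that is assumed to vary like the other groups, 28 were called, 11 higher and 17 lower, where 19.3% of all genes were (9.52% higher and 9.8% lower). Gsta3 then stood at 2.63 ± 0.27, Ephx1 at 1.20 ± 0.16, Aldh2 at 1.0 ± 0.14 and Sult1c2 at -1.04 ± 0.25 (adjusted p of 1.00e-05 to 0.00658). Ephx1, Gsta3, Gstm1, Gstm2, Aldh2, Cyp2d22, Akr1b10, Aldh4a1 and Sult1c2 were called without any 1 array. On middle-aged replicate 3 the thymocyte mean was 7.74, the fibroblast mean 7.56 and the hepatocyte and gut mean 7.91, each the highest of its group.

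Of the 11 marker lists, 5 did not overlap between the ages in TEC, all lower in middle-aged TEC. Myeloid markers (6 of 10 present) read 7.38 to 8.26 in middle-aged TEC and 8.88 to 9.00 in young TEC, B lineage markers (5 of 8) 6.61 to 6.81 in middle-aged and 7.30 to 7.39 in young TEC, and erythroid markers (4 of 6) 7.07 to 7.54 in middle-aged and 8.12 to 8.38 in young TEC. Mesothelial and pericyte markers were the other lists that did so. Their part in the ageing differences was not tested.

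At the early days after castration few TEC members were called. At day 4 there were 2 of 67 (2.99%), both lower, where 3.62% of all genes were called (2.33% higher and 1.29% lower), and 16 members had an unadjusted p under 0.05. Sult1c2 read 8.34, 8.61 and 8.36 in castrated TEC, against 9.49, 9.44 and 9.49 in sham TEC, and fell by 1.04 ± 0.18 (adjusted p = 0.0117). The call of Sult1c2 was lost without castrated replicate 2 (-1.12, adjusted p = 0.0568) or 3 (-1.0, 0.0834). Gstm6 read 7.23, 5.89 and 5.31 in castrated TEC, against 7.56, 7.72 and 7.77 in sham TEC. Castrated replicates 2 and 3, which stood apart, were the low ones. The fall of 1.54 ± 0.38 (adjusted p = 0.0343) lost its call without sham replicate 2 or 3 or castrated replicate 2 or 3, and without the 4 arrays it was -0.41 with an adjusted p of 0.698.

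At day 7 there were again 2 of 67, Ephx1 and Aldh2, both lower, against 0.171% of all genes (0.0732% higher and 0.0976% lower), and 19 members had an unadjusted p under 0.05. Ephx1 read 10.82, 10.99 and 11.11 in castrated TEC, against 11.68, 11.54 and 11.85 in sham TEC. Aldh2 read 12.27, 12.28 and 12.28 in castrated TEC, against 12.95, 13.00 and 12.93 in sham TEC. Neither overlapped, and they fell by 0.72 ± 0.13 and 0.68 ± 0.13 (adjusted p = 0.0407 for both). Leaving out any 1 of the 6 arrays left 0 members called, with adjusted p of 0.0708 to 0.208 for Ephx1 and 0.0771 to 0.182 for Aldh2, while the differences stayed between -0.79 and -0.64.

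At day 20 castration moved 30 of 67 members in TEC, 17 higher and 13 lower, or 44.8% against 22.5% of all genes (13.1% higher and 9.4% lower). The members' median difference was -0.03 and that of all genes -0.04. Leaving out 1 array gave 22 to 26 calls.

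The falls included Gsta3, Ephx1 and Aldh2. The glutathione transferases split, 4 higher and 5 lower of 20 tested. Gsta3 read 9.65, 9.35 and 9.32 in castrated TEC, against 11.08, 11.58 and 11.54 in sham TEC, a difference of -1.96 ± 0.29 (adjusted p = 9.67e-05) or a 3.88-fold fall. Ephx1 read 10.29, 10.47 and 10.54 in castrated TEC, against 11.40, 11.63 and 11.62 in sham TEC, and fell by 1.11 ± 0.13 (adjusted p = 1.83e-05). Aldh2 read 12.02, 12.22 and 12.25 in castrated TEC, against 13.04, 13.18 and 13.07 in sham TEC, and fell by 0.93 ± 0.13 (adjusted p = 5.73e-05). The castrated arrays thus lay in or below the range of the young unoperated arrays for Ephx1 (10.52 to 10.85), and close to it for Aldh2 (12.15 to 12.56). Gstm1 fell by 1.51 ± 0.34, Gstm2 by 0.86 ± 0.20, Mgst1 by 0.79 ± 0.15, Cyp2d22 by 1.07 ± 0.22 and Cyp2f2 by 1.03 ± 0.25.

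The rises included some P450s, aldo-keto reductases and sulfotransferases. Akr1c18, the progesterone-inactivating 20-alpha-hydroxysteroid dehydrogenase, read 7.46, 7.38 and 7.26 in castrated TEC, against 5.81, 5.37 and 5.95 in sham TEC, a difference of 1.66 ± 0.25 (adjusted p = 0.000138). Of the 8 TEC groups Akr1c18 was above the filter only in castrated day 20 and young TEC, so it entered the test partly through a group compared here. Cyp26a1, which degrades retinoic acid, read 8.13, 8.19 and 7.99 in castrated TEC, against 6.75, 6.65 and 6.67 in sham TEC, a difference of 1.41 ± 0.27 (adjusted p = 0.000776). Sult1c2 rose by 1.58 ± 0.18, with 9.25, 8.76 and 8.83 in castrated TEC and 7.75, 7.06 and 7.28 in sham TEC. No castrated array overlapped a sham array for these 3 genes.

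Cyp1a2, a P450 induced through the aryl hydrocarbon receptor, rose by 1.62 ± 0.25, Cyp3a13 by 1.49 ± 0.34, Cyp2g1 by 1.42 ± 0.33 and Cyp2a5 by 1.19 ± 0.34, the last of which lost its call without sham day 20 replicate 2 or 3. Mgst3 rose by 0.91 ± 0.21 and Aox3 by 1.10 ± 0.24. In 11 of the 30 day 20 calls the lower group compared had a mean under the filter. In sham TEC this held for Cyp1a2 (5.17), Akr1c18 (5.71), Aox3 (6.31), Cyp2g1 (6.35), Cyp3a13 (6.57) and Cyp26a1 (6.69). The sizes of these rises therefore rest partly on dim readings. Gsta1 and Gsta2, near-identical genes, rose by 1.59 ± 0.53 and 1.47 ± 0.50, and both calls were lost without any 1 of the 6 arrays (adjusted p 0.0588 to 0.112 and 0.0523 to 0.113). Myeloid markers read 9.33 to 9.48 in castrated TEC and 8.05 to 8.25 in sham TEC at day 20, and hepatocyte and gut markers (5 of 8 present) 7.63 to 7.79 and 6.35 to 6.55, in the same order. Thymocyte markers read 7.00 to 7.21 in castrated TEC and 6.14 to 6.58 in sham TEC. In all, 10 of the 11 marker lists, the epithelial one included, were higher on every castrated than on every sham array of day 20, and endothelial markers overlapped. Apart from the thymocyte list, used as a covariate in an alternative fit, the part of these lists in the differences was not tested.

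**Figure D3:**
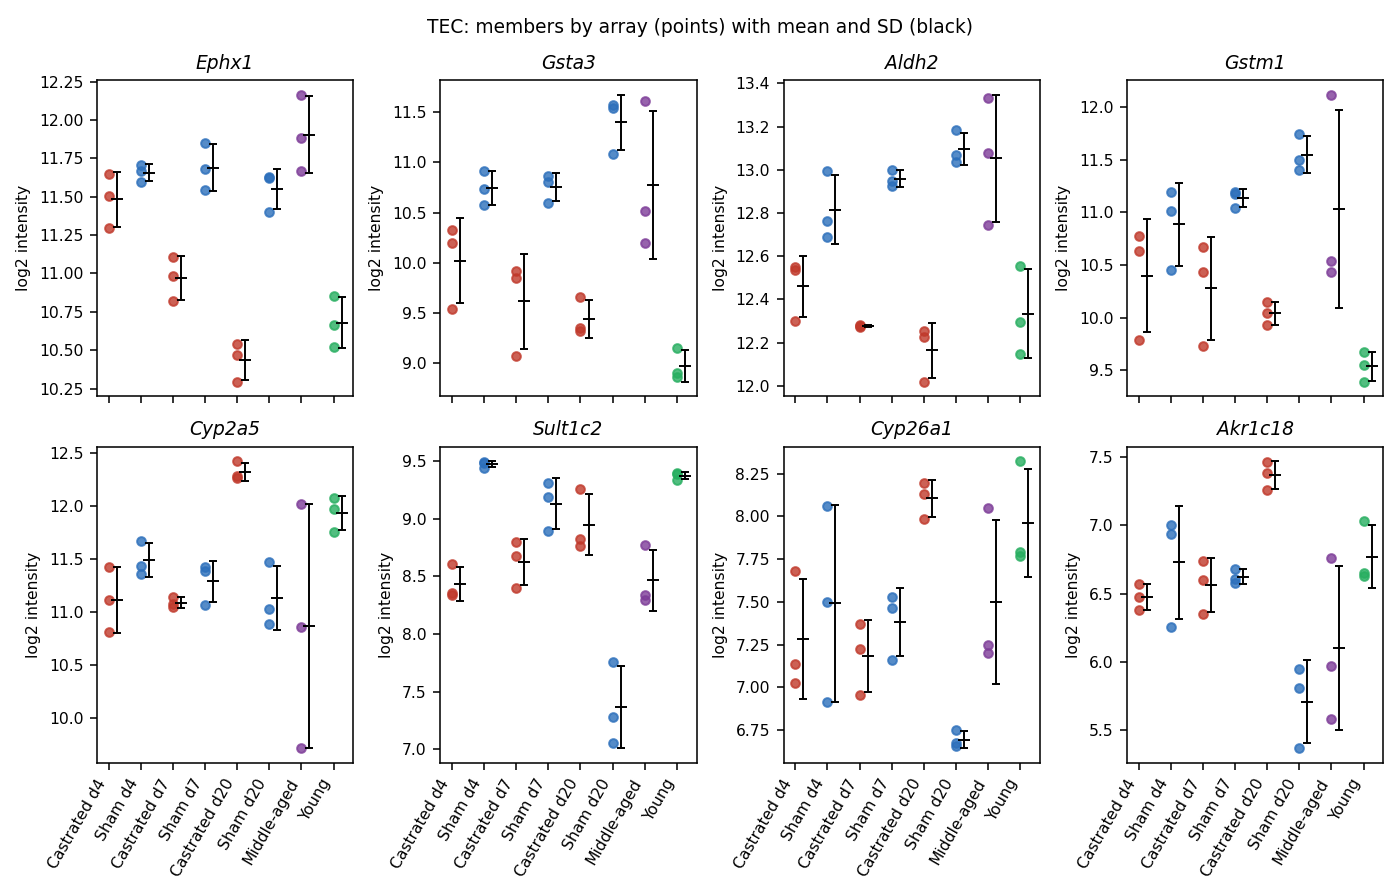
Log2 intensity of 8 members on each TEC array (points), with group mean and SD (black), for castrated (red), sham (blue), unoperated middle-aged (purple) and unoperated young (green) TEC. Ephx1, Gsta3, Aldh2 and Gstm1 are lower on the castrated day 20 arrays than on the sham ones, while Cyp2a5, Sult1c2, Cyp26a1 and Akr1c18 are higher there.

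Sham arrays also varied with the day. Sult1c2 in sham TEC read 9.44 to 9.49 at day 4, 8.89 to 9.31 at day 7 and 7.06 to 7.75 at day 20, while castrated TEC stayed between 8.34 and 9.25 over the 3 days. Akr1c18 in sham TEC read 6.25 to 7.00 at day 4, 6.58 to 6.68 at day 7 and 5.37 to 5.95 at day 20. Castrated and sham arrays together, 38 of 67 members differed between day 20 and days 4 and 7, 10 higher and 28 lower at day 20, where 64.2% of all genes did (25.6% higher and 38.6% lower). The difference, day 20 minus days 4 and 7, was -1.06 ± 0.13 for Mgst3, -1.05 ± 0.17 for Gsta4 and -0.92 ± 0.09 for Mgst1.

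The castration difference itself changed between days in 28 members, 18 upwards and 10 downwards at day 20 relative to days 4 and 7, or 41.8% against 22.9% of all genes (12.2% upwards and 10.7% downwards). This comparison was added after seeing the data. Sult1c2 differed most clearly, at 1.58 on day 20 and -0.77 on days 4 and 7, a change of 2.35 ± 0.22 (adjusted p = 3.22e-06). Akr1c19 changed by 2.02 ± 0.34, Akr1c18 by 1.82 ± 0.31 and Cyp26a1 by 1.62 ± 0.32. Ephx1 changed by -0.67 ± 0.16 (adjusted p = 0.0065).

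**Figure D4:**
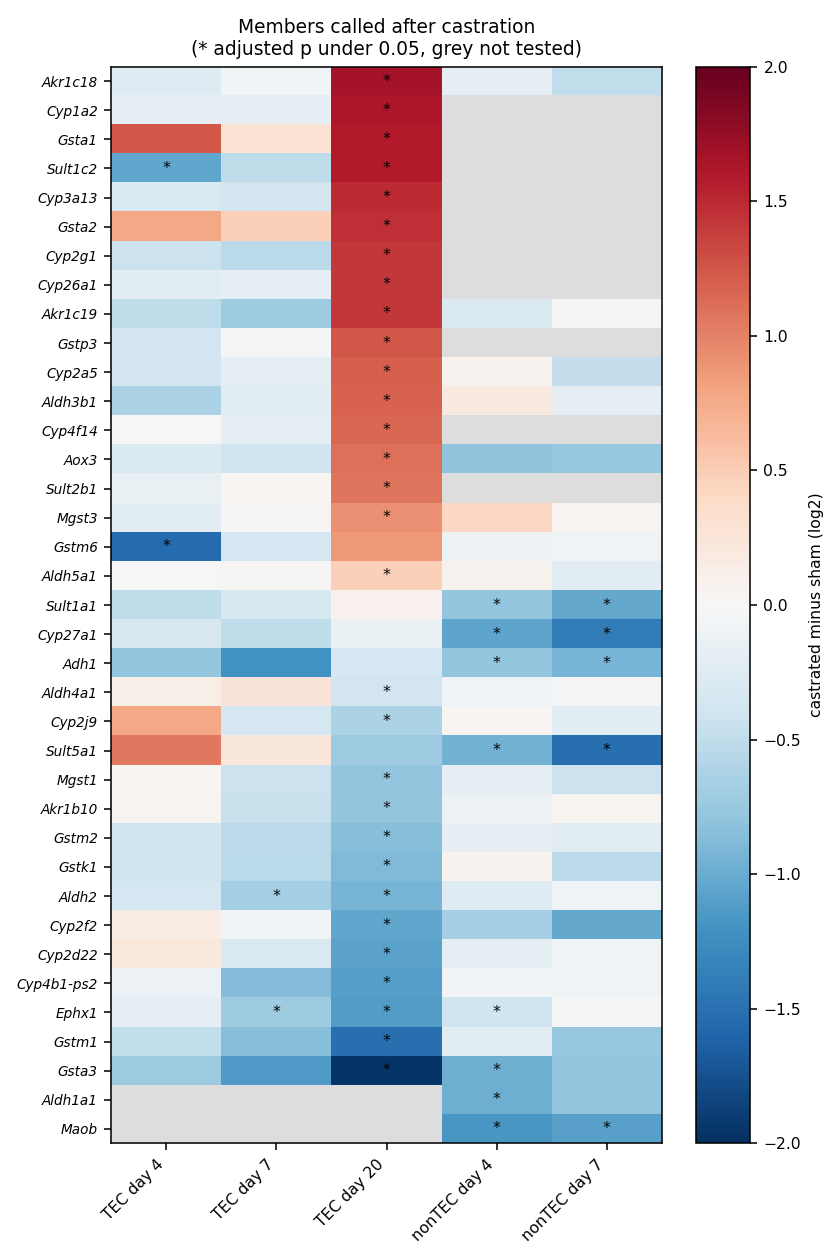
Castrated minus sham difference (colour, log2) of the 37 members called on at least 1 day, by fraction and day, with a star where the adjusted p was under 0.05 and grey where a member was not tested. The TEC day 20 column holds most stars, 17 red and 13 blue, while the nonTEC columns hold blue ones only, 8 at day 4 and 5 at day 7.

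Averaged over the 3 days, 3 TEC members rose and 11 fell, 20.9% against 10.8% of all genes (5.87% higher and 4.95% lower). Gsta3 fell by 1.27 ± 0.17 (adjusted p = 0.000318), Ephx1 by 0.67 ± 0.08 (7.26e-05), Aldh2 by 0.66 ± 0.07 (6.94e-05) and Adh1 by 0.77 ± 0.18 (0.0112). Gsta3 and Aldh2 did not overlap between castrated and sham arrays over all days.

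The 250 bases before the start of 3 genes called in TEC both with age and at day 20 after castration, in opposite directions, are given from the same RefSeq windows and searched for the same letters. They lie at chr1:181017570-181017819 on the minus strand for Ephx1, at chr1:21240335-21240584 on the plus strand for Gsta3, and at chr7:26835089-26835338 on the plus strand for Cyp2a5.
Ephx1: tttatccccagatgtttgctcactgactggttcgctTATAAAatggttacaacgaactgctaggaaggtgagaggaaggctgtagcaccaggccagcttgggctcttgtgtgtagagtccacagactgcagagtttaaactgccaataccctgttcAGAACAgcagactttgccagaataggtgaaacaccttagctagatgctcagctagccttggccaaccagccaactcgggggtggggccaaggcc
Gsta3: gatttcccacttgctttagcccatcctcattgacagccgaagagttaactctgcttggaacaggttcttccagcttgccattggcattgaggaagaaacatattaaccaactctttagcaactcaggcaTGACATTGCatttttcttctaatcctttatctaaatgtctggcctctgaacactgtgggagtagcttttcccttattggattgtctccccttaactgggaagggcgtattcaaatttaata
Cyp2a5: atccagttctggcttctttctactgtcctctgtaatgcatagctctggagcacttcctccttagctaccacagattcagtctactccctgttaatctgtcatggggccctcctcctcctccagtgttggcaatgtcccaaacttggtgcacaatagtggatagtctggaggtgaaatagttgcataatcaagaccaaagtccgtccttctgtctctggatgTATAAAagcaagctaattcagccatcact
Ephx1 held AGAACA beginning 94 bases and TATAAA 214 bases before the start, Gsta3 held TGACATTGC at 121 bases, and Cyp2a5 held TATAAA at 29 bases. TGACNNNGC occurred in 10.2% of all windows and 7.76% of the member windows, TATAAA in 12.4% and 16.4%, and GCGTG in 28.2% and 24.1%. A match describes these letters only.

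Ageing and castration called overlapping members, on arrays that the contrasts did not share. In nonTEC 9 members were called in both, 31% of the 29 ageing calls and 64.3% of the 14 castration calls, and all 9 were higher with age and lower after castration: Adh7, Aox3, Cyp2e1, Maob, Cyp27a1, Sult5a1, Adh1, Gsta3 and Gstm1. Over all nonTEC genes 356 were called in both, 345 in opposite directions, which is 14.1% of the ageing calls and 70.1% of the castration calls. The share of castration calls is therefore near that of all genes. These castration differences are relative to sham nonTEC. In sham nonTEC Cyp2e1 stood 0.68 above unoperated middle-aged nonTEC, the largest such difference of the members tested. The arrays did not overlap, but it was not called (adjusted p = 0.0782 in limma). Against unoperated middle-aged nonTEC, Cyp2e1 averaged over both days after castration differed by 0.12 and was not called.

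In TEC 16 members were called with age and at day 20, 72.7% of 22 and 53.3% of 30, and over all genes 851 were, 55.2% and 46.2%. Of the 16, 10 were higher with age and lower after castration, among them Gsta3, Gstm1, Gstm2, Ephx1 and Aldh2. They also include Cyp4b1-ps2, which passed the filter through middle-aged TEC alone. The other 6 were lower with age and higher after castration, namely Sult2b1, Mgst3, Gstp3, Sult1c2, Cyp2g1 and Cyp2a5. These day 20 differences are relative to sham TEC of day 20. That group had the lowest mean of all TEC groups for Sult2b1, Mgst3, Gstp3, Sult1c2 and Cyp2g1, and the highest for Gsta3, Gstm1, Gstm2 and Aldh2. Against unoperated middle-aged TEC, Cyp2g1 at day 20 after castration differed by -0.13 and was not called. All 16 went in opposite directions, as did 849 of the 851 genes. With castration averaged over the 3 days, 8 TEC members were called in both, 36.4% of 22 and 57.1% of 14. Over all genes 307 were, 19.9% and 34.6%, and 298 of these went in opposite directions.

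**Figure D5:**
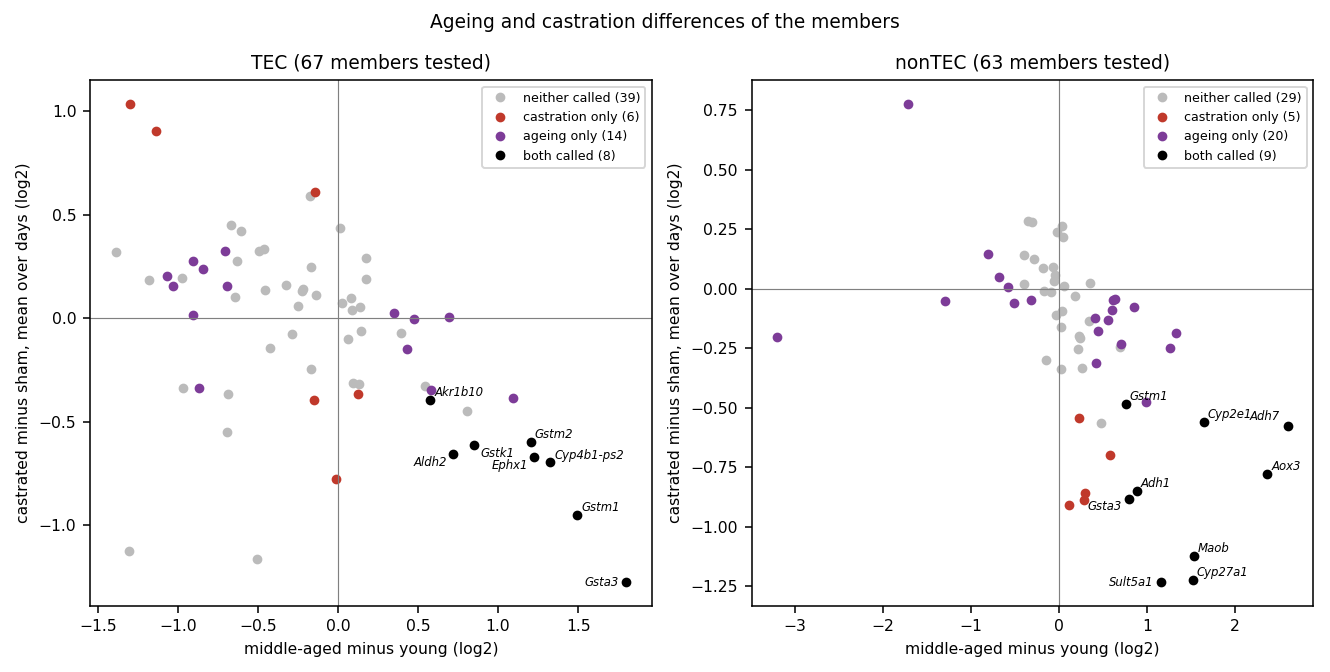
Castrated minus sham difference, averaged over days (vertical, log2), against middle-aged minus young difference (horizontal, log2) for each member tested, TEC left and nonTEC right, with colours for the calls. The black points, called in both, are 8 in TEC and 9 in nonTEC, and all lie in the lower right quadrant, higher with age and lower after castration. Of all genes called in both, 298 of 307 in TEC and 345 of 356 in nonTEC went in opposite directions.

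The ageing difference itself differed between the fractions in 11 of 70 members, 6 in the positive and 5 in the negative direction, or 15.7% against 11.2% of all genes (7.78% positive and 3.45% negative). Adh7 differed by -0.98 with age in TEC and by 2.60 in nonTEC, a gap of -3.57 ± 0.47 (adjusted p = 7.77e-06). Aox3 differed by -0.46 in TEC and 2.37 in nonTEC, a gap of -2.83 ± 0.36 (adjusted p = 6.79e-06). Ephx1 was the clearest in the other direction, with 1.23 in TEC and 0.24 in nonTEC, a gap of 0.99 ± 0.17 (adjusted p = 0.000245).

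The castration difference over days 4 and 7 differed between the fractions in 5 of 70 members, 3 in the positive and 2 in the negative direction, or 7.14% against 6.04% of all genes (3.68% positive and 2.37% negative). Sult5a1 was among them, at 0.64 in TEC and -1.23 in nonTEC, a gap of 1.87 ± 0.41 (adjusted p = 0.00751). Cyp27a1 was not, at -0.42 in TEC and -1.08 in nonTEC, a gap of 0.66 ± 0.27 (adjusted p = 0.125). This fit reads Cyp27a1 from the probe that is brightest over both fractions, which is not the one behind the nonTEC fall of 1.22. The gap of Akr1c12, -2.63 ± 0.71 (adjusted p = 0.0258), involves arrays that stood apart. In TEC it read 7.56, 4.60 and 4.51 in castrated day 4, against 8.81, 8.72 and 7.94 in sham day 4. Without the 4 arrays the gap was -1.77 with an adjusted p of 0.0352, without castrated day 4 replicate 2 alone it was -2.39 (0.0567) and without replicate 3 alone -2.37 (0.0515).

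Sham surgery alone was set against no surgery in middle-aged mice as a check on the controls. In TEC 2 of 67 members were called against 5.58% of all genes (1.87% higher and 3.71% lower), Aldh6a1 at 1.23 ± 0.36 and Cyp2s1 at -0.74 ± 0.18, sham minus unoperated. This count depended on the arrays that stood apart, and was 16 without the 4 arrays, where 15.5% of all genes were called, and 0 without all 5, where 0.659% were. In nonTEC limma called 0 of 63, against 0.283% of all genes (0.244% higher and 0.0386% lower), with 14 members at an unadjusted p under 0.05.

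The P450s that open steroid synthesis were dim in TEC and were not among the members present on nonTEC arrays. In TEC, Cyp11a1 read 4.85 to 6.81 and Cyp17a1 4.90 to 7.18 over the 24 arrays, with every group mean under the filter, and they were not tested. At day 20 Cyp11a1 read 5.86, 5.62 and 5.71 in castrated TEC and 4.85, 4.96 and 5.03 in sham TEC, and Cyp17a1 6.54, 6.57 and 6.47 in castrated TEC and 5.24, 5.20 and 4.90 in sham TEC. Both pairs of groups were separate, at levels where no call was made. Cyp11b2 and Cyp24a1, which make aldosterone and degrade vitamin D, had overall means of 4.83 and 4.85 in TEC and 5.10 and 4.85 in nonTEC. Sult1e1, the oestrogen sulfotransferase, averaged 5.04 in nonTEC. Cyp1a1, Cyp11b1, Cyp19a1, Cyp21a1, Cyp26b1 and Maoa were not analysed here.

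Other genes of the same pathways were counted from lists chosen with earlier results known. In nonTEC ageing, where 16.8% of all genes were higher and 15.5% lower, 3 of 12 steroid and sterol genes tested were higher and 3 lower, and 2 of 7 retinoid genes were higher, Rarb (1.16, adjusted p = 0.000579), a retinoic acid receptor, and Rxrb (0.65, adjusted p = 0.002). Of 10 sensors and electron donors 3 were higher, among them the bile acid receptor Nr1h4 (0.84, adjusted p = 0.00031) and Nfe2l2 (0.78, adjusted p = 0.0202), and 1 was lower, the liver X receptor Nr1h3 (-0.57, adjusted p = 0.0039). Of 21 other xenobiotic enzymes and transporters 2 were higher, Ces1d (1.74, adjusted p = 7.13e-06), a carboxylesterase, and Abcb1b (0.74). After castration in nonTEC, averaged over days, where 2.73% of all genes were higher and 3.81% lower, 0 of the 12, 7 and 10 genes of the first 3 lists were called. In the last list 3 of 21 were lower, Fmo1 (-0.50, adjusted p = 0.00521), Hmox1 (-0.71, adjusted p = 0.0222) and Ces1d (-0.49, adjusted p = 0.0432).

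In TEC ageing, where 11.9% of all genes were higher and 6.88% lower, 4 of 11 retinoid genes were called. Rarb was higher (1.0, adjusted p = 0.00358), while the retinoic acid binding proteins Crabp1 (-0.86, adjusted p = 0.00974) and Crabp2 (-0.72, adjusted p = 0.045) and the reductase Dhrs4 (-0.43) were lower. At day 20 after castration, where 13.1% were higher and 9.4% lower, 4 of 11 were called, with Crabp1 (1.34, adjusted p = 0.000219) and the retinol transporter Stra6 (1.19, adjusted p = 0.00762) higher and Rarb (-1.26, adjusted p = 0.000314) and Rdh5 (-0.55) lower. Of the 12 steroid and sterol genes, 4 were called with age in TEC and 1, Tspo (0.37, adjusted p = 0.0375), at day 20. Of 8 sensors and electron donors, 0 were called with age in TEC, and Alas1 (0.51) was higher and Cyb5r3 (-0.83) lower at day 20.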

How the data were processed

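RNA of sorted TEC (24 arrays, 8 groups) and nonTEC (17 arrays, 6 groups) was measured on Illumina arrays. The authors deposited processed log2 intensities. The array medians lay at 6.68 in TEC and between 6.81 and 6.82 in nonTEC, so the fractions appear to have been normalized separately. The base of the log is not stated and was taken as 2, while no source used here gives the background correction or a detection filter. The submitters' processing notes name limma without its role. The number of arrays limits the precision.

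Of 24671 probes, 20825 carry 1 gene and 11 several. Each gene was read from its probe of highest mean, kept where at least 1 group mean exceeded 6.73, and tested with lmFit and eBayes (trend) of limma 3.58.1 in R 4.3.3, on all arrays of a fraction or, between fractions, on genes measured in both. P-values were adjusted by Benjamini-Hochberg over all genes tested in each of 16 comparisons. The fits were tested on simulated data. The members and gene lists were chosen with earlier results of these data known.

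Genes were named when called, at most 15 of largest difference in each direction per comparison, plus a fixed set, plus up to 4 called genes per pathway list. The comparison of the castration difference at day 20 with days 4 and 7, and the alternatives without 4 or 5 TEC arrays and with a marker mean as covariate, were added after seeing the data. The main fits did not treat arrays of the same replicate number as paired. Of same-number pairs, 35 of 84 in TEC and 8 of 40 in nonTEC had deviations correlated above 0.1. The median correlation in TEC was 0.05 for same-number and -0.04 for other pairs, and in nonTEC -0.03 and 0.01. The highest same-number value in TEC was 0.73. Whether the numbers mark pairs was not tested. Alternatives covered the filter, probe choice, normalization, array weights, the arrays in the fit, the control group, a replicate block and leaving out each array.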

Additional observations from a re-analysis of the deposited data

Results flagged for a closer look

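These differences were singled out because the difference between groups was itself tested and passed the adjusted threshold in limma. About ageing, the effect in TEC minus that in nonTEC was 2.13 for Cyp2a5, 1.83 for Cyp4b1-ps2, 1.56 for Cyp4b1, 0.99 for Ephx1, 0.98 for Aldh18a1 and 0.98 for Gstm2. It was -1.17 for Aldh5a1, -1.36 for Ugt1a6b, -2.34 for Sult5a1, -2.83 for Aox3 and -3.57 for Adh7. Cyp2a5 fell with age in both fractions, by 1.07 in TEC and 3.20 in nonTEC. Cyp4b1 and Cyp4b1-ps2 had values of 1.16 and 1.33 in TEC and -0.40 and -0.51 in nonTEC. Cyp4b1 and Ugt1a6b were under the filter in every TEC group, with overall TEC means of 5.64 and 4.94. Their gaps therefore rest partly on dim TEC readings.

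For castration over days 4 and 7, the effect in TEC minus that in nonTEC was 1.87 for Sult5a1, 0.91 for Cyp2f2, 0.83 for Aldh1a1, -0.51 for Gstz1 and -2.63 for Akr1c12. Leaving out 1 array at a time, Sult5a1 alone of these 5 was called each time. Aldh1a1 was under the filter in every TEC group, with an overall TEC mean of 5.14. It differed by -0.06 in TEC and -0.89 in nonTEC, so its gap rests partly on dim TEC readings.

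Between days, the castration effect in TEC at day 20 minus that at days 4 and 7 was 3.62 for Akr1c12, 2.35 for Sult1c2, 2.02 for Akr1c19, 1.90 for Cyp2g1, 1.82 for Cyp3a13, 1.82 for Akr1c18, 1.81 for Gstm6 and 1.80 for Cyp1a2. It was 1.62 for Aldh3b1, 1.62 for Cyp26a1, 1.48 for Cyp2a5, 1.44 for Gstp3, 1.44 for Aox3, 1.34 for Ugt1a10 and 1.25 for Cyp4f14. In the other direction it was -0.56 for Aldh4a1, -0.59 for Mgst1, -0.59 for Akr1b10, -0.67 for Ephx1, -0.84 for Cyp2j9, -1.02 for Cyp2d22, -1.03 for Gsta3, -1.09 for Cyp2f2, -1.92 for Aldh6a1 and -2.51 for Cyp1b1. The values of Akr1c12 and Gstm6 include castrated day 4 arrays that stood apart and read low for both genes. Their standard errors were 1.05 and 0.46. Cyp1b1 read 7.66, 7.35 and 7.00 in castrated TEC and 8.52, 8.35 and 8.84 in sham TEC at day 20, while at day 4 it read 7.28, 7.38 and 7.44 in castrated TEC and 6.41, 5.49 and 5.11 in sham TEC.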

How the results depend on the processing

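Counts of called members depended on the fit, and the causes were not tested. The share of all genes called changed with the fit too, as given above for the fits without 4 or 5 TEC arrays. It is not printed beside the counts here, so a change in a count is not a result about the members alone. With array weights they were 39 for TEC ageing, 32 for the ageing gap between fractions, 17, 29 and 47 for TEC castration at days 4, 7 and 20, 36 over the 3 days, 14 and 19 for nonTEC castration at days 4 and 7, 23 over both, 26 for the castration gap, 22 for TEC sham surgery and 51 for day 20 minus days 4 and 7. On only the arrays compared, which leaves fewer samples, they were 0 for TEC ageing, 4 for the ageing gap, 0 and 46 for TEC days 4 and 20, 23 over the 3 days, 18 for nonTEC day 7 and 0 for TEC sham surgery. Over all 41 arrays they were 9 and 4 for TEC days 4 and 7, 5 and 2 for nonTEC days 4 and 7, and 6 for TEC sham surgery. Against unoperated controls they were 0 and 7 for TEC days 4 and 7, 15 for nonTEC day 7 and 8 over both days. Without 4 of the 5 TEC arrays that stood apart (keeping middle-aged replicate 2) they were 36 for TEC ageing, 30 for the ageing gap, 0 and 7 for TEC days 4 and 7, 3 for the castration gap and 16 for TEC sham surgery. Without all 5 they were 28 for TEC ageing, 0 and 9 for TEC days 4 and 7, 3 for the castration gap and 0 for TEC sham surgery. With the epithelial covariate nonTEC gave 8 for ageing and 0, 2 and 2 for castration at days 4 and 7 and over both. With the thymocyte covariate TEC gave 4 at day 4 and 1 for sham surgery. No filter gave 5 and 0 at TEC days 4 and 7, a stricter one 1 at day 4 and 1 for sham surgery, the mean of all probes 5 at day 4 and 8 for the castration gap, no variance trend 1 at day 7, and sham arrays as the older group 27 for the ageing gap. The replicate block gave 4 at TEC day 4 and 5 for TEC sham surgery, 22 for TEC ageing and 30 for nonTEC ageing. Leaving out 1 array gave 9 to 23 for the ageing gap, 1 to 8 for the castration gap, 23 to 30 for nonTEC ageing, 3 to 10, 0 to 3 and 7 to 14 for nonTEC castration at days 4, 7 and over both, and 0 to 3 for nonTEC sham surgery. In TEC it gave 11 to 30 for ageing, 0 to 9, 0 to 0, 22 to 26 and 10 to 17 for castration at days 4, 7, 20 and over all, 22 to 30 for day 20 minus days 4 and 7, 34 to 41 between days, 0 to 9 for sham surgery, and 59 to 63 between fractions. Signs turned for Cyp2s1 with sham arrays as the older group (-0.044 in TEC ageing, -0.86 in the gap). Against unoperated controls they turned for Cyp2g1 (-0.13), Cyp7b1 (-0.52) and Cyp1b1 (1.37) at day 20, Cyp2s1 over TEC days (-0.73) and Cyp2e1 in nonTEC (0.12). In TEC sham surgery they turned for Gstm1 (-0.76) and Gstm2 (-0.35) with array weights and for Gstm2 without the 4 arrays (-0.39), and Gstm2 ranged from -0.36 to 0.21 leaving out 1 array. Between days they turned for Aldh1a3 (0.11) and Adh1 (0.10) with the mean of probes and Adh1 (0.032) with the thymocyte covariate.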

Other observations

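Several members dropped to the level of dim probes on single TEC arrays. Adh5, the formaldehyde-clearing alcohol dehydrogenase, read 8.71, 4.60 and 4.27 in castrated TEC at day 4 and 8.79, 8.21 and 7.83 in sham TEC, and 8.76, 7.96 and 4.38 in middle-aged TEC and 8.47, 8.65 and 7.89 in young TEC. Akr1c12 read 8.93, 7.81 and 4.60 in middle-aged TEC and 7.60, 7.72 and 7.54 in young TEC. Gstp1 read 11.25, 11.72 and 8.70 in middle-aged TEC. The low values of these genes lie on arrays that stood apart, so the means of those groups lie far from their arrays.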
